A study of Mus musculus with 12 samples.

Results

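H3K9me2 ChIP was set against input in the prefrontal cortex of normal mice, in the 4 libraries of 2 wild-type (WT) mice out of the 12 libraries of the series. The WT mice were C57BL/6, 5 to 6 months old, and each gave 1 ChIP library and 1 input library. The other libraries, from mice that carry mutations of familial Alzheimer's disease (FAD mice) and from such mice given BIX01294, an inhibitor of EHMT1 and EHMT2, entered only through the marks of the library in which a region had been called. The WT libraries were taken by their labels, and all 33787 regions of the deposited table of FAD against WT were measured in them. A region is a stretch of 240 to 5485 bp, with a median of 329 bp, that the authors called in at least 1 WT or FAD ChIP library. The punches hold all cell types of the cortex, so that the share of cells with the mark and the amount per cell cannot be told apart.

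H3K9me2 is the addition of a pair of methyl groups to lysine 9 of histone H3. In mammals it is written mainly by EHMT1 (GLP) and EHMT2 (G9a), and it lies over broad, gene-poor domains in which genes tend to be silent. In mouse forebrain neurons, loss of these enzymes is known to release genes of other cell lineages from silence. ChIP enriches DNA fragments bound to the mark with an antibody, and the input is the same sheared chromatin without that step, so that a ratio of 1 is the level of unselected chromatin.

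Of 32817 windows of 250 bases upstream of a RefSeq start (GRCm38.p6), 138 (0.421%) overlapped a region. They were overlapped by 131 regions, 0.388% of all regions. The regions cover only 12670 kb, and the share of windows they would meet at random was not worked out. By the authors' distances, 2005 regions (5.93%) lay within 2 kb of a start. The covered windows held fewer CG dinucleotides than promoters at large, with a median of 2 against 6. Of the covered windows 6.52% held at least 10 CG, against 37.8% of all windows, and 76.8% held at least 1, against 92.1% of all windows. Their GC content had a median of 47.6%, against 52.4%. Olfactory or vomeronasal receptors were 9.42% of the covered windows, 13 genes, and 3.88% of all windows. The mark over the 131 regions was at a median log2 ChIP over input of 0.96 in mouse 1 and 0.68 in mouse 2.

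The upstream windows with the strongest and the weakest mark are shown for where their CG lie. They were taken from 29 windows of named genes overlapped by at least 100 bp, and were chosen after their values were seen. Sequences are RefSeq's, 5′ to 3′ on the gene's strand, with CG, which reads the same on both strands, in capitals. The strongest 2 belong to Olfr1242, an olfactory receptor (chr2:89494347-89494596, minus strand), and to Cd5l, a secreted protein of macrophages (chr3:87357631-87357880, plus strand). The weakest 2 belong to Krtap14, a keratin-associated protein of hair (chr16:88826146-88826395, minus strand), and to Nppb, the natriuretic peptide B gene (chr4:147985650-147985899, plus strand).
Olfr1242: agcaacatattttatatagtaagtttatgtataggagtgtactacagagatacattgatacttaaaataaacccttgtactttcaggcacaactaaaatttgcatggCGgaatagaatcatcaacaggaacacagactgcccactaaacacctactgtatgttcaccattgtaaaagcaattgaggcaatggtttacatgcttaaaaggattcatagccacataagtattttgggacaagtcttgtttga
Cd5l: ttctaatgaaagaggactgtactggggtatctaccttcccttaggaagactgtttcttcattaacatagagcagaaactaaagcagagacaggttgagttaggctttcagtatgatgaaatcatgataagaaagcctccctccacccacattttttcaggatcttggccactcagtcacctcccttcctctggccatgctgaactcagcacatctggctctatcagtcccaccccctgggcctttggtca
Krtap14: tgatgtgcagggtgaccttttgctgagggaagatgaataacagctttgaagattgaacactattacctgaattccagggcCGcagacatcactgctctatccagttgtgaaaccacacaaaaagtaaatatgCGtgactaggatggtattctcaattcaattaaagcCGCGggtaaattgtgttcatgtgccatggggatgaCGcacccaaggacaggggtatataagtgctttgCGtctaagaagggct
Nppb: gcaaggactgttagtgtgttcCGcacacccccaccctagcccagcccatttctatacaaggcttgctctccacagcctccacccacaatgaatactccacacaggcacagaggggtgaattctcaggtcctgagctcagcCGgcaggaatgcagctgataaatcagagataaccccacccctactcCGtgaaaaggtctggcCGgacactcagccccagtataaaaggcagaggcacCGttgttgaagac

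The region at Olfr1242, whose window holds 1 CG, had 24 and 10 ChIP reads against 1 and 1 input reads in mouse 1 and mouse 2. The region at Cd5l, whose window holds 0 CG, had 7 and 24 ChIP reads against 2 and 1 input reads. In both, ChIP was above input in each mouse, but the mouse with more ChIP reads differed. The region at Krtap14, with 6 CG in the window, had 5 and 11 ChIP reads against 5 and 11 input reads, so that the ChIP gave no excess of reads. By the authors' annotation the Krtap14 region is centred in a last exon. So is the Olfr1242 region, which they place 3740 bp from the nearest start. The region at Nppb, with 5 CG, had 8 and 15 ChIP reads against 24 and 8 input reads. Its log2 ratio was -1.52 in mouse 1 and 0.21 in mouse 2, so that ChIP was below input in mouse 1 only.

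The libraries held 24.5 and 26.6 M ChIP reads and 23.8 and 17.3 M input reads in mouse 1 and mouse 2. The regions took 2.00% and 2.15% of the ChIP reads and 0.938% and 1.07% of the input reads. A region had a median of 11 and 12 ChIP reads and of 5 and 4 input reads, so a single region's ratio is coarse. Of the regions, 6.51% and 11.9% had no input read in mouse 1 and mouse 2.

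ChIP was above input over most regions in both mice. The median log2 ChIP over input, on reads plus 1 scaled to the library totals, was 0.96 in mouse 1 and 0.87 in mouse 2. With all reads summed it was 1.09 and 1.00, which is about a doubling in each mouse. ChIP exceeded input in both mice in 21811 regions (64.6%), in 1 mouse only in 10655 (31.5%), and in neither in 1321 (3.91%). With 2 libraries a side, the exact two-sided permutation test of the median RPM gave 0.333, the smallest p this design allows.

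Tested region by region against the library totals (edgeR quasi-likelihood, Benjamini-Hochberg), 1169 of 30752 regions (3.8%) were higher in ChIP at an adjusted p below 0.05 and 0 were lower. Of the 1169, 1054 lay among the 9784 tested regions that had been called in a WT library. Those calls were made in the same ChIP libraries, so the direction was largely selected in advance. At an unadjusted p below 0.05 the same test gave 8486 higher and 10 lower, and DESeq2 gave 119 higher and 0 lower after adjustment. With the mouse as a block, which pairs each ChIP with its own input, 156 regions (0.507%) were higher. The count also rested on each library. It was 303 without the ChIP of mouse 1, 458 without the ChIP of mouse 2, 62 without the input of mouse 1 and 182 without the input of mouse 2. Of the 1169 regions, 60.3% had at most 3 input reads over both mice. Under TMM scaling, which sets a region against the typical region rather than against the whole library, 19 regions (0.0618%) were higher and 0 lower, with 1405 and 627 at an unadjusted p below 0.05. The median log2 fold of the tested regions was 0.14 under TMM and 1.18 with library totals, and few regions stood above the typical one.

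The 2 mice did not rank the single regions alike. Pearson's r between their log2 ratios was 0.03 over the 33787 regions, which share the library totals and their low counts. A ratio over 4-fold was found in 7681 regions (22.7%) of mouse 1 and in 6930 (20.5%) of mouse 2, and in both in 1603 (4.74%). Of the regions over 4-fold in mouse 1, 20.9% were over 4-fold in mouse 2, against 20.5% of all regions. The log2 RPM of the ChIP libraries of the 2 mice correlated at 0.34, and the ChIP of mouse 2 correlated at 0.36 with the input of mouse 1. With a floor on depth, r was 0.42 over the 1282 regions with at least 10 reads in each input, but 0.093 over the 14294 with at least 10 reads in each ChIP.

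Summing the reads of a gene's regions brought the mice closer, by Pearson's r more than by rank. A gene here is the named gene that a region overlaps or, where there is none, the one the authors list as closest. Pearson's r was 0.07 over all 4299 genes with a region, 0.16 over the 651 genes with at least 5 regions, 0.21 over the 240 with at least 10, 0.45 over the 76 with at least 20 and 0.61 over the 41 with at least 25. Spearman's rho was 0.07 over all 4299 genes, 0.21 over the 651, 0.20 over the 240 and 0.26 over the 76. Of the 76, 1 gene on an unplaced contig, AC149090.1, lies apart from the others at 0.00 in mouse 1 and 0.34 in mouse 2. Genes on unplaced contigs were also left out, an alternative chosen after seeing the data. Then r was 0.35 (rho 0.23) over 75 genes with at least 20 regions and 0.48 (rho 0.26) over 40 with at least 25. Windows of 1 Mb with at least 20 regions gave 0.29 over 700 windows.

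**Figure D1:**
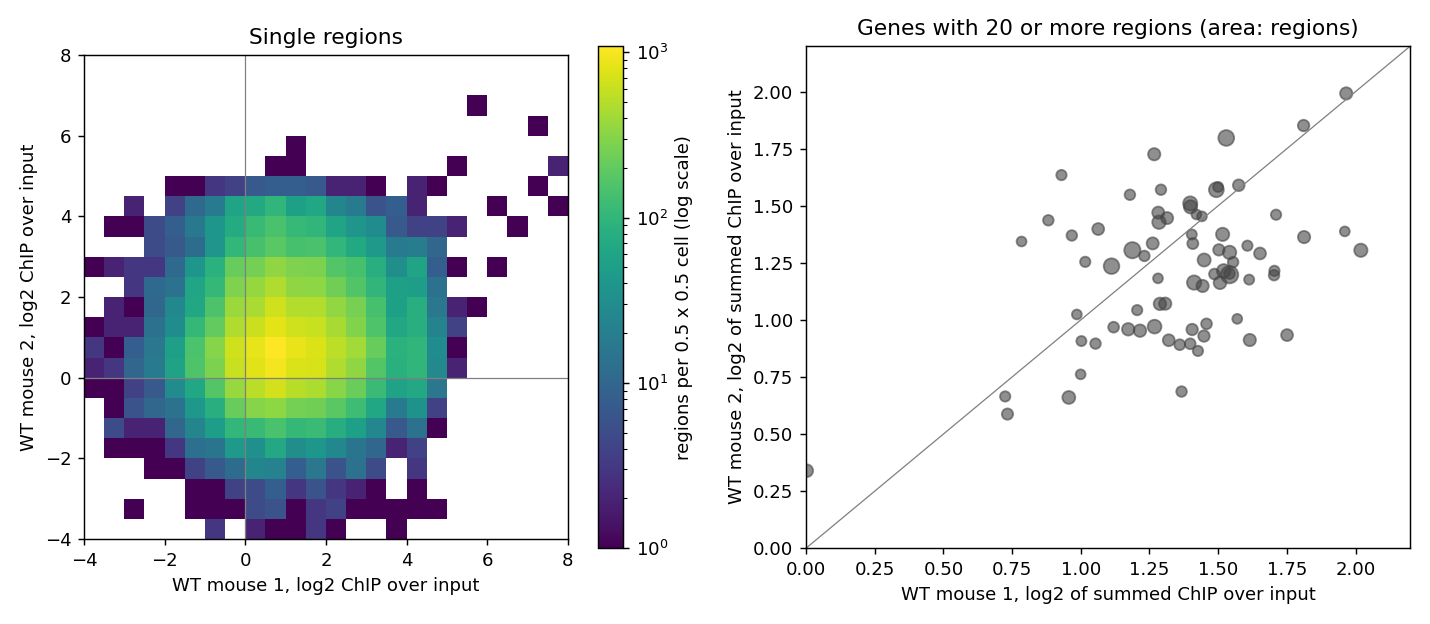
Log2 ChIP over input in WT mouse 1 (x axis) against WT mouse 2 (y axis). Left, the 33787 regions as counts per cell of the grid on a log colour scale, with values beyond the axes drawn at the edge; right, the 76 genes with at least 20 regions, point area by number of regions, with the line of equality. The regions form a round cloud above 0 in both mice (r = 0.03), and the genes lean along the line (r = 0.45, or 0.35 without the gene at the lower left).

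Most of the authors' calls were made in 1 WT mouse and not in the other. In the ChIP of mouse 1, 5867 regions were called and in that of mouse 2, 4133, and 192 were called in both, which is 3.27% and 4.65% of each list. The regions called in mouse 1 and not in mouse 2, 5675 in number, had a median log2 ratio of 2.48 in mouse 1, where they were chosen, and of 0.84 in mouse 2. The 3941 called in mouse 2 and not in mouse 1 had 2.55 in mouse 2, where they were chosen, and 0.79 in mouse 1. The 23979 regions called in FAD libraries only had 0.75 in mouse 1 and 0.66 in mouse 2. In the mouse that had not chosen them, regions called in the other WT mouse were thus 0.04 (mouse 1) and 0.19 (mouse 2) above regions called in no WT library. Of the regions called in no WT library and tested, 115 of 20968 (0.549%) were higher in ChIP, and 14 were when they were fitted alone.

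**Figure D2:**
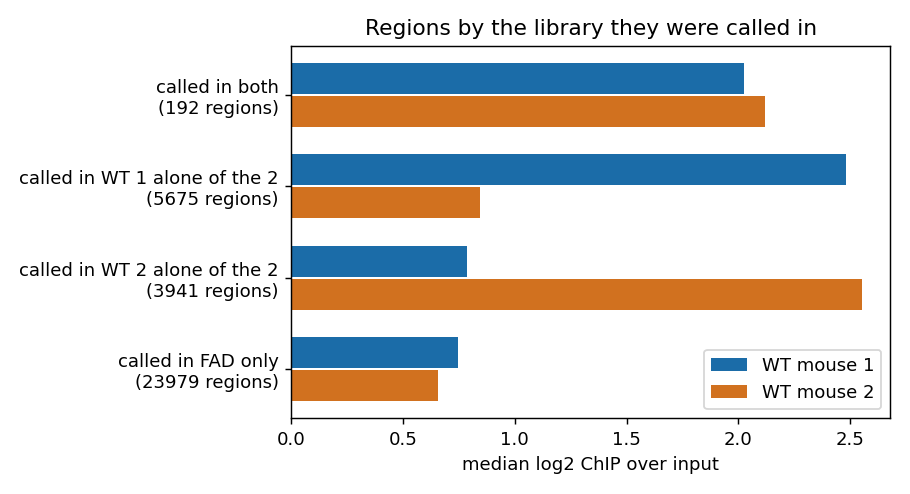
Median log2 ChIP over input (x axis, bars from 0) in WT mouse 1 and WT mouse 2, for regions grouped by the WT library in which the authors called them. A region called in 1 mouse alone is high in that mouse (2.48 and 2.55) and near the level of the regions called in FAD only in the other (0.84 and 0.79).

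The 192 regions called in both mice were wider and deeper than the rest. Their median width was 633.5 bp, and 33 of them were at least 1 kb wide, of 192 such regions in the table. Their median log2 ratio was 2.02 in mouse 1 and 2.12 in mouse 2, values that the calls themselves select. They had a median of 38 and 43.5 ChIP reads against 8 and 6 input reads. By class 143 were between genes, 45 in introns and 4 in exons or UTRs, close to the shares of all regions, 72.3%, 24.5% and 3.23%. Of the 192, 37 had over 60 input reads summed over the mice, and 20 lay within 0.5 Mb after the first 3 Mb of a chromosome, next to the centromeric end. Of all regions, 0.681% had over 60 input reads and 0.784% lay in that stretch of a chromosome.

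The strongest regions were taken by the lower of the 2 mice, among regions with at least 3 reads in each input. Of the first 10, 8 were between genes and 2 in introns, near the shares of all regions, 72.3% and 24.5%. The first was chr2:83691201-83691476, 9777 bp from the nearest start, with 1893 and 894 ChIP reads against 11 and 6 input reads. That is a log2 ratio of 7.26 in mouse 1 and 6.38 in mouse 2, far above the typical region in both (adjusted p = 5.74e-13, edgeR). It is 275 bp wide and was called in 1 FAD library and in no WT library. Why it went uncalled in WT with so many ChIP reads was not tested. The next was chr6:129334981-129335221, near 4922502D21Rik, with 338 and 135 ChIP reads against 4 and 3 input reads. The third was chr17:88274011-88274369, with 259 and 115 ChIP reads against 6 and 4 input reads. In 8 of the 10, the ratio was higher in mouse 1.

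Smoc1, which encodes a secreted calcium-binding matrix protein, had 1 of the 10 in an intron, at chr12:81159892-81160281. It had 199 and 100 ChIP reads against 6 and 6 input reads, a log2 ratio of 4.79 in mouse 1 and 3.23 in mouse 2. The region chr12:23477698-23478201, with 435 and 255 ChIP reads against 12 and 11 input reads, was called in every WT and FAD library. All 10 passed the test, with adjusted p between 5.74e-13 and 0.00443 (edgeR), and all 10 passed with the mouse as a block. They were chosen by the ratio in the libraries tested, so that passing adds no separate support. Of the 10, 6 had been called in no WT library and 3 in both, where 71.0% and 0.568% of all regions were so called.

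The weakest regions with at least 10 reads in each input had ChIP below input in both mice, but none passed the test (adjusted p from 0.131 to 0.38, edgeR). They too were chosen by the ratio in the libraries tested. The lowest was chr9:120922599-120922966, between genes, with 4 and 6 ChIP reads against 17 and 13 input reads, or log2 ratios of -1.89 and -1.62. A region in an intron of Sdk1, a synaptic adhesion protein, had 4 and 4 ChIP reads against 11 and 11 input reads. One in the first intron of Rims2, a protein of the presynaptic active zone, had 5 and 9 ChIP reads against 12 and 16 input reads. All 10 had been called in no WT library, as had 71.0% of all regions, and in the second FAD library alone. The share of all regions called in that library alone was not counted. Of 1194 regions eligible for this choice, 172 had ChIP below input in both mice.

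By place in the gene, exons and UTRs had lower ratios than introns or the space between genes, by an amount that depended on the input. The 1092 regions centred on exons or UTRs had a median log2 ratio of 0.85 in mouse 1 and 0.67 in mouse 2, and 0.75 and 0.51 with reads summed. The 24413 between genes had medians of 0.96 and 0.87, and 1.10 and 1.03 summed. The exons and UTRs were lower in both mice by either measure, and 23 of 1000 tested (2.30%) were higher in ChIP, against 3.8% of all regions. The 8282 regions in introns had medians of 1.06 and 0.87, and 1.14 and 1.03 summed, so that they exceeded the space between genes by 0.05, within the 0.07 SD between the mice. The median input was 5 and 5 reads in exons and UTRs, 4 and 4 in introns and 5 and 4 between genes. The difference of exons and UTRs from the space between genes, -0.15 as the mean over the mice of the medians, was -0.049 with at least 5 reads in each input and -0.067 in WT-called regions.

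Ratios were also lower near gene starts in the summed reads. These gave 0.88 in mouse 1 and 0.74 in mouse 2 for the 2005 regions within 2 kb of a start, 1.03 and 0.98 at 10 to 50 kb, and 1.29 and 1.18 for the 7844 regions at 100 to 500 kb. The 306 regions beyond 500 kb had 1.39 and 1.17. Up to 500 kb the summed level was higher at each greater distance in each mouse. The medians did not follow each step, with 0.96, 0.92 and 0.96 in mouse 1 under 2 kb, at 2 to 10 kb and at 10 to 50 kb. Over 100 kb minus under 2 kb was 0.42 in the summed reads and 0.17 in the medians, and 0.021 with at least 5 reads in each input, within the 0.049 SD between the mice.

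Width gave no single answer. The 192 regions of at least 1 kb had medians of 1.10 in mouse 1 and 1.04 in mouse 2, against 1.07 and 0.82 in the 13229 regions under 300 bp. With reads summed the order turned round, at 0.55 and 0.72 in the wide regions and 1.32 and 1.07 in the narrow ones. In the wide regions 16.7% of those tested were higher in ChIP, against 3.04% in the narrow ones; they had a median of 39 and 51 ChIP reads, against 9 and 10. The ratio also moved with the input itself: the 3721 regions with 0 to 3 input reads over both mice gave 3.29 and 3.20 summed, and the 230 with over 60 reads gave 0.40 and 0.58. The part of the input in the differences between kinds of region was not tested.

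**Figure D3:**
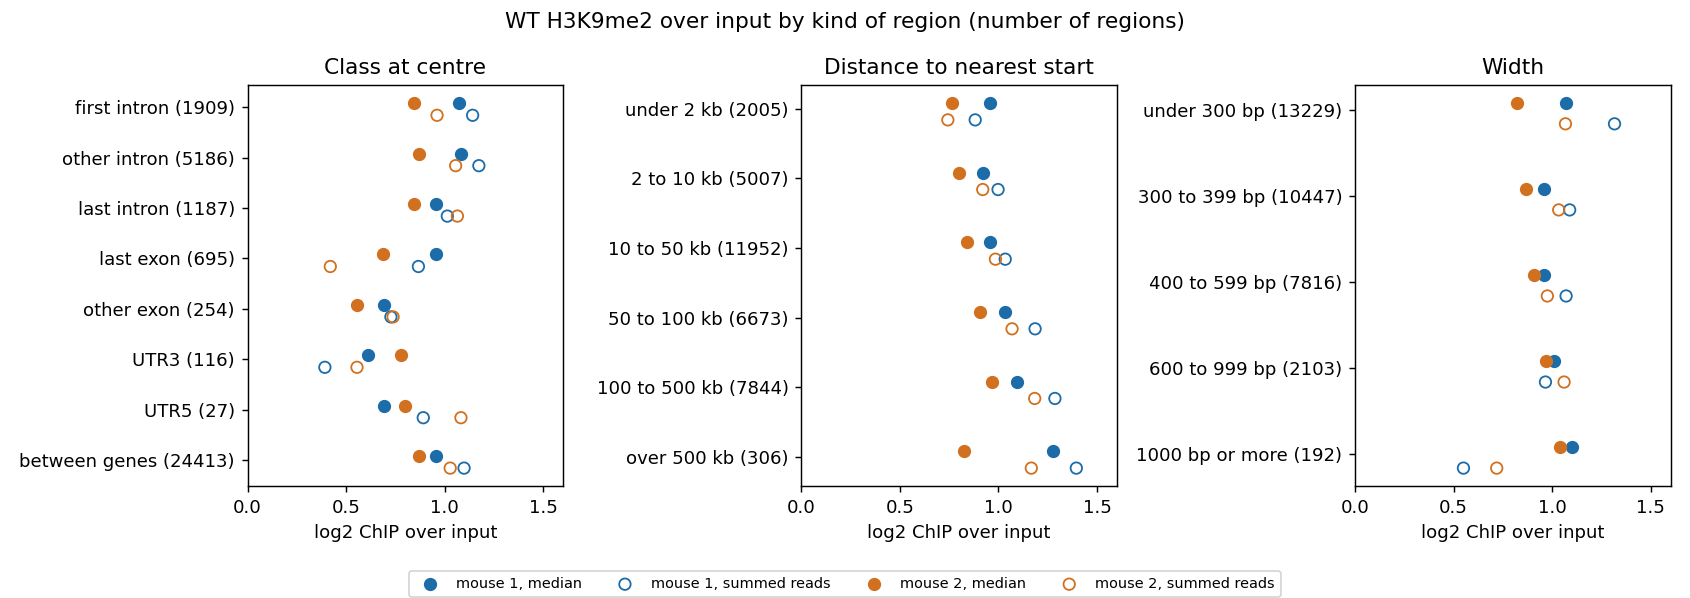
Log2 ChIP over input (x axis) in WT mouse 1 (blue) and WT mouse 2 (orange) by class at the region's centre, distance to the nearest start and width, with the number of regions in brackets. Filled points are medians over regions and open points come from summed reads; exons, 3′ UTRs and regions near starts lie to the left in the summed reads, and for regions of at least 1 kb the open points lie left of the filled ones.

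Among the chromosomes, 7 had the lowest medians of the autosomes, at 0.76 in mouse 1 and 0.71 in mouse 2 over 1607 regions, and chromosome 14 had 1.09 and 0.97 over 2034 regions. The X chromosome held 166 regions, with medians of 0.78 and 0.77. The 124 regions on unplaced contigs were at 0.12 and 0.53, with a median of 28 and 17.5 input reads, far more than elsewhere.

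Per gene, with reads summed over its regions, 1175 of 4003 genes (29.4%) were higher in ChIP and 0 were lower (edgeR, library totals); at an unadjusted p below 0.05, 1679 were higher and 0 lower, and DESeq2 gave 593 higher and 0 lower after adjustment. A gene's regions enter by the same calls. Fitted on regions called in no WT library alone, 363 of 3293 genes were higher. With the mouse as a block 874 of the 4003 genes (21.8%) were higher. The count was 670 without the ChIP of mouse 1, 753 without the ChIP of mouse 2 and 757 without the input of mouse 1. Of the 651 genes with at least 5 regions, 513 (78.8%) were higher and 630 had ChIP above input in both mice. Genes with more regions have more reads, so this share is not comparable with that of all genes. The genes with the most regions were the long neuronal genes Cntnap2, with 62 regions, Csmd1 with 54 and Lrp1b with 51.

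The 10 strongest genes of the 651, by the lower mouse, all passed with and without the block. They were chosen by the ratio in the libraries tested, so that passing adds no separate support, and 513 of all 651 passed. Among ligands, Angpt1, which activates the Tie2 receptor of blood vessels, had 92 and 77 ChIP reads over 6 regions, against 20 and 11 input reads. Of these 6 regions 2 overlapped the gene. Nrg3, a neuregulin that activates the ErbB4 receptor of interneurons, had 454 and 487 ChIP reads over 31 regions, against 112 and 79 input reads. All 31 regions overlap Nrg3, 27 of them had ChIP above input in both mice, and the log2 ratio was 1.97 in mouse 1 and 1.99 in mouse 2 (log2 fold 1.99, SE 0.28, adjusted p = 6.62e-10, edgeR).

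Within signalling, Grk5, a kinase that desensitises G protein-coupled receptors, had 60 and 74 ChIP reads against 10 and 11 input reads. Socs6, a suppressor of cytokine signalling, had 155 and 177 ChIP reads against 42 and 33 input reads, in 9 regions of which 0 overlapped the gene. At the synapse, Syt1, the calcium sensor of vesicle release, had 115 and 122 ChIP reads against 30 and 17 input reads, with log2 ratios of 1.86 and 2.16. The log2 ratios of Grk5 were 2.43 and 2.03, and those of Socs6 were 1.82 and 1.77.

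Gabrg1, a subunit of the GABA-A receptor, had 139 and 162 ChIP reads against 39 and 30 input reads, with log2 ratios of 1.76 and 1.78. Of its 9 regions 1 overlapped the gene. Cntnap5b, a contactin-associated protein, had 357 and 414 ChIP reads over 27 regions, against 98 and 74 input reads. Abca13, a transporter of the ABC family, had 231 and 224 ChIP reads against 54 and 41 input reads. Ccser1 had 301 and 278 ChIP reads over 17 regions, against 75 and 46 input reads, and AW209491 had 136 and 141 against 26 and 24, in 10 regions that lie outside it. In all 10 genes the log2 ratio was at least 1.76 in each mouse.

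The 10 weakest genes, chosen by low ratios in the libraries tested, were close to input. None passed the test (adjusted p from 0.274 to 0.838, edgeR). Cyp2c29, a liver cytochrome P450, had 106 and 144 ChIP reads over 5 regions, against 104 and 80 input reads, or log2 ratios of -0.02 and 0.22. None of these 5 regions overlapped the gene. Myh6, the cardiac alpha myosin heavy chain, had 66 and 47 ChIP reads over 5 regions, against 50 and 35 input reads, or 0.35 and -0.20. Mroh2a had 504 and 706 ChIP reads over 9 regions, against 378 and 353 input reads, with 0.37 and 0.38.

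The transcription factors Zfp521 and Tox3 had 53 and 76 ChIP reads against 44 and 39 input reads, and 65 and 65 against 58 and 33. Of the 8 regions of each, 2 overlapped Zfp521 and 3 overlapped Tox3. Stac, an adaptor of calcium channels, had 52 and 81 ChIP reads against 42 and 44 input reads, and Plch1, a phospholipase C, had 42 and 50 against 34 and 25. Col19a1, a collagen, had 36 and 42 ChIP reads against 27 and 29 input reads. The other 2, AC149090.1 and AC125149.4, lie on unplaced contigs, and AC149090.1 had 16278 and 27054 ChIP reads against 15765 and 13942 input reads.

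**Figure D4:**
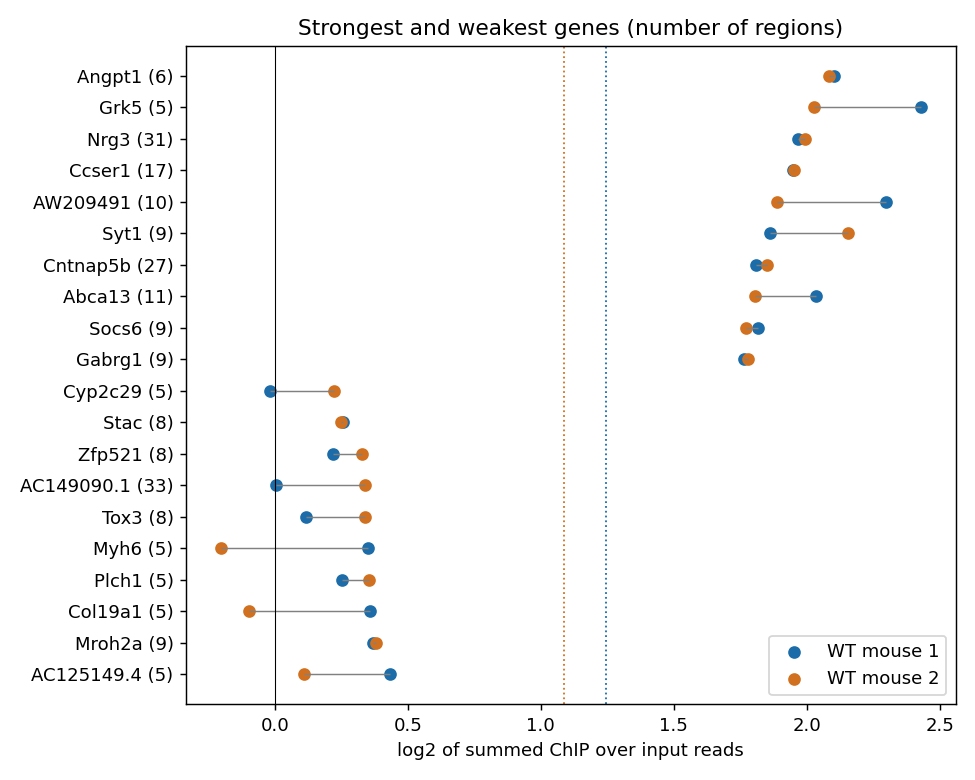
Log2 of summed ChIP over input reads (x axis) in WT mouse 1 (blue) and WT mouse 2 (orange) for the 10 strongest and 10 weakest genes with at least 5 regions, with the number of regions in brackets. Dotted lines are the medians of the 651 genes, 1.24 in mouse 1 and 1.09 in mouse 2, and the solid line is the level of input; the strongest genes lie at 1.76 or above in both mice.

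The longest genes had a higher level than the shortest, though not by steps in both mice. Of the 651 genes, 619 had a RefSeq length. The 158 genes over 500 kb had a median log2 ratio of 1.36 in mouse 1 and 1.19 in mouse 2, and the 146 genes under 50 kb had 1.13 and 1.05. Between them, the 124 genes of 50 to 200 kb had 1.20 and 1.02, and the 191 of 200 to 500 kb had 1.27 and 1.12. The single genes overlapped widely between the end classes, from 0.14 to 2.87 in mouse 1 for the long genes and from -0.28 to 2.54 for the short ones.

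Among the gene lists, cell adhesion genes of neurons had the most regions per gene. The 584 regions of 29 such genes had a median log2 ratio of 1.30 in mouse 1 and 1.07 in mouse 2, against 0.96 and 0.87 for all regions, and 23 of 537 tested regions (4.28%) were higher, near the 3.8% of all regions. Per gene 26 of 29 were higher (89.7%), against 29.4% of all genes and 78.8% of those with at least 5 regions. Besides Cntnap5b, Cntnap3, of the same family, was high, with 9 and 37 ChIP reads against 1 and 5 input reads (adjusted p = 0.0147, edgeR, and 0.0572 with the block). Tenm3, a teneurin, had 40 and 38 ChIP reads against 23 and 18 input reads and did not pass (adjusted p = 0.322).

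Receptor, channel and cadherin genes are read against the same shares, 3.8% of all regions and 29.4% of all genes or 78.8% of those with at least 5 regions. GABA-A receptors had medians of 1.11 in mouse 1 and 1.05 in mouse 2 over 84 regions, with 8 of 77 regions (10.4%) and 8 of 11 genes (72.7%) higher. Gabrb1 had 153 and 205 ChIP reads against 49 and 28 input reads, and Gabrg3, among the lowest of the list by the higher mouse, had 349 and 420 against 135 and 145; both passed. Ionotropic glutamate receptors had medians of 1.15 and 0.97 over 133 regions, with 5 of 125 regions (4.0%) and 7 of 9 genes (77.8%) higher. Grik2, a kainate receptor, had 306 and 362 ChIP reads against 90 and 85 input reads, and the NMDA receptor subunit Grin2b had 81 and 79 against 34 and 39 (adjusted p = 0.0753, edgeR).

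Voltage-gated potassium channels had medians of 1.12 in mouse 1 and 0.97 in mouse 2, with 6 of 100 regions (6.0%) and 11 of 18 genes (61.1%) higher; Kcnh8 had 169 and 153 ChIP reads against 54 and 34 input reads. Type II cadherins had 1.18 and 0.97, with 3 of 109 regions (2.75%) and 7 of 8 genes (87.5%) higher. Cdh18 had 142 and 207 ChIP reads against 40 and 37 input reads, and Cdh19 had 130 and 127 against 90 and 45 (adjusted p = 0.0859, edgeR). Of the 11 regions listed for Cdh19, 1 overlapped the gene. With at least 5 reads in each input, the difference of GABA-A receptors from all regions was -0.19, that of potassium channels -0.11 and that of type II cadherins -0.01.

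Olfactory and vomeronasal receptors, which detect odours and pheromones in the nose, were the largest family, with 523 genes and 735 regions. Their medians of 0.96 in mouse 1 and 0.90 in mouse 2 were at the level of all regions. Of their regions 31 of 673 (4.61%) were higher in ChIP, against 3.8% of all regions, and of their genes 99 of 479 (20.7%), against 29.4% of all genes. Olfr293 had 25 and 18 ChIP reads and Olfr1283 had 12 and 26, with 0 input reads in either mouse, and both passed (adjusted p = 6.35e-05 and 0.0002, edgeR). Olfr1047 had 2 and 6 ChIP reads against 5 and 7 input reads, in a region outside the gene.

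Of the lists with at least 20 regions, zinc-finger genes, muscle genes and keratins were below the level of all regions in both mice. KRAB and other zinc-finger genes had medians of 0.68 in mouse 1 and 0.74 in mouse 2 over 190 regions, with 5 of 172 regions (2.91%) and 16 of 75 genes (21.3%) higher, against 3.8% of all regions and 29.4% of all genes. Heart and skeletal muscle genes had 0.56 and 0.38 over 32 regions, with 0 of 25 regions and 2 of 6 genes (33.3%) higher. In WT-called regions alone the zinc-finger and muscle lists turned, to 0.091 and 0.082 above all such regions. The 2 muscle genes that were higher were Ryr2 and the titin gene Ttn. Ryr2, the ryanodine receptor that is also present in neurons, had 161 and 135 ChIP reads against 60 and 52 input reads. Ttn had 84 and 85 against 40 and 31. Ttn did not pass with the block (adjusted p = 0.0564). Actc1, cardiac actin, had 31 and 21 ChIP reads against 30 and 25 input reads.

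Serpins, cytochromes P450 and UDP-glucuronosyltransferases had medians of 0.66 in mouse 1 and 1.01 in mouse 2 over 144 regions. Of their regions 2 of 131 (1.53%) were higher, against 3.8% of all regions. Keratins had 0.83 and 0.48, with 1 of 24 (4.17%) higher. Immune lectin and Fc receptors had 0.83 and 1.38, with 0 of 23 higher. In these 3 the mice did not lie on the same side of all regions, or differed by more than the list did from all regions.

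**Figure D5:**
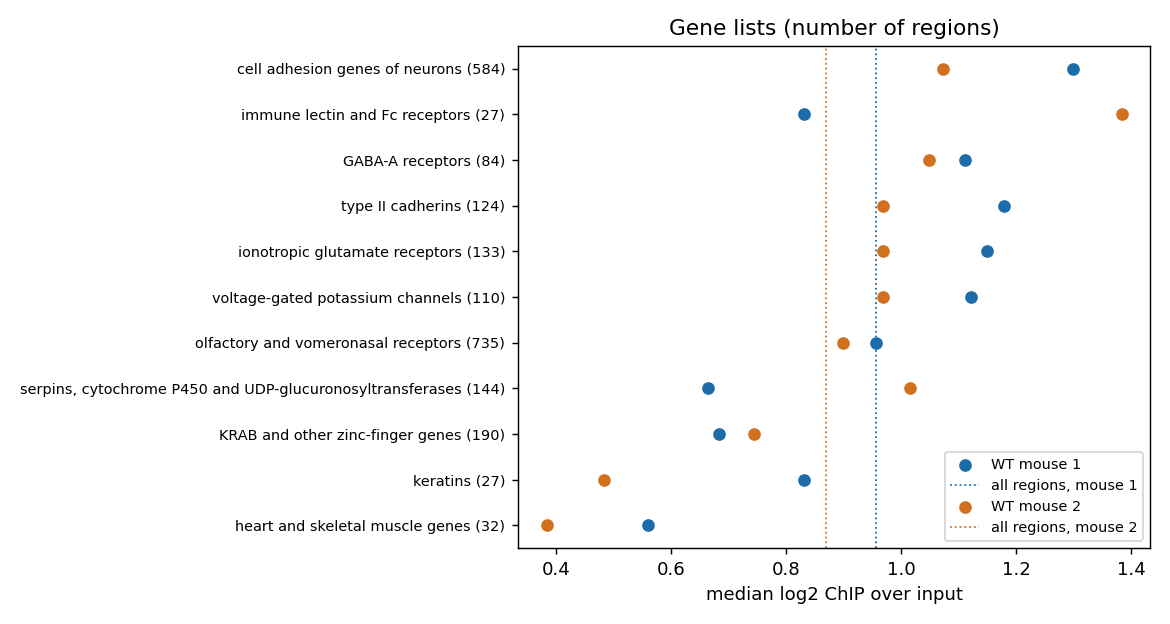
Median log2 ChIP over input (x axis) of the regions of each gene list with at least 20 regions, in WT mouse 1 (blue) and WT mouse 2 (orange), with the number of regions in brackets. Dotted lines are the medians of all regions, 0.96 and 0.87. Neuronal adhesion genes lie right of both lines in both mice. Heart and skeletal muscle genes, zinc-finger genes and keratins lie left of them.

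Among the cell type markers, the regions of Sst, Snap25, Mbp, Ugt8a and Aqp4 all lie outside the gene, which is only the closest one. The shares that were higher in each marker list are to be set beside 3.8% of all regions and 29.4% of all genes. Of 13 neuron markers 7 had a region, with 2 of 15 tested regions (13.3%) and 2 of 6 genes (33.3%) higher. The 2 genes were Syt1 and Sst. Sst, the somatostatin gene of interneurons, had 48 and 33 ChIP reads against 8 and 4 input reads. Snap25, a vesicle fusion protein of all neurons, had 9 and 8 ChIP reads against 6 and 5 input reads (adjusted p = 0.823, edgeR). Of 9 oligodendrocyte markers 2 had a region: Mbp, the myelin basic protein gene, had 17 and 7 ChIP reads against 0 and 0 input reads, and Ugt8a, an enzyme of myelin lipids, had 60 and 85 against 31 and 19; both passed. Among 6 astrocyte markers Aqp4, the water channel, had 61 and 53 ChIP reads against 42 and 16 input reads and did not pass. Of 6 endothelial markers 4 had a region and 0 were higher. None of the 6 microglia markers or the 12 housekeeping genes had a region. The share of all genes that have a region was not counted. How many markers have a region is therefore not a result about a cell type.

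The genes that write, read or erase H3K9 methylation had 6 regions. The share of all genes that have a region was not counted, so this number has no background. Of 21 genes 5 had a region, and 0 of 4 genes tested were higher, against 29.4% of all genes. Ehmt1 had 8 and 7 ChIP reads against 1 and 4 input reads, in 1 region. Jmjd1c, of the JMJD1 demethylase family, had 7 and 13 ChIP reads against 12 and 8 input reads, and Atf7ip, a partner of the methyltransferase SETDB1, had 5 and 4 against 10 and 5.

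Under TMM scaling 7 genes (0.175%) stood above the typical gene, and 0 below, with 201 and 127 at an unadjusted p below 0.05. They were chosen for that value, and 5 of them rest on 1 region. Ovol2, a zinc-finger factor of epithelia, had 1104 and 419 ChIP reads against 2 and 12 input reads, in a region that lies outside the gene. Gpc3, a cell surface proteoglycan, had 151 and 36 ChIP reads against 0 and 0 input reads. Qpct, an enzyme that forms pyroglutamate, had 340 and 211 ChIP reads against 2 and 16 input reads, and Mrc2, a collagen receptor, had 225 and 77 against 8 and 8. Smoc1 (207 and 113 against 15 and 17), 4922502D21Rik and Gm45233 were the others. In each of the 7, the ratio was higher in mouse 1.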

How the data were processed

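The submitters' processing notes name MACS2 2.1.0, BWA 0.7.12, Trimmomatic, FastQC and the build mm9. The read type of each library (single-end or paired-end) was not stated. The deposited table holds read counts per region, RPM, a fold enrichment (a ratio of ChIP RPM to input RPM) and marks of the library in which the authors called each region, per the file headers. On every region the deposited RPM equalled the count plus 1 over a constant, taken as the library total, within a relative deviation of 4.73e-06. The 10 columns of FAD values and the second comparison table were not used here.

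One row per region was kept, 33787 of 34413. Of 3513 genes matched by symbol, 99.8% overlapped their RefSeq position in GRCm38.p6, so coordinates are given as GRCm38, with the first base counted as in the files. Genes came from overlap (21.3% of regions) or the closest start (16.3%), and 62.4% had none.

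The test on counts was the quasi-likelihood test of edgeR 4.0.16 (R 4.3.3; library totals, at least 20 reads over the 4 libraries, adjusted p below 0.05). DESeq2 1.42.0, TMM, other filters and leaving out libraries were alternatives. The SE is the log2 fold over the square root of F, from variation shared across regions. The scripts were tested on simulated data. Ratios used 1 added read per region, per gene or per 1 Mb window. None was added where reads were summed over a kind of region or a list. By the labels, ChIP and input of the same number come from the same mouse; their deviations from the group means correlated at -0.11. P-values measure the spread between 2 mice only, and reads are not independent molecules. Members and lists were chosen with earlier results of these data known. Named regions are the 10 highest by the lower mouse (at least 3 reads in each input, mean ChIP at or above the median, placed chromosomes) and the 10 lowest by the higher mouse (at least 10 reads in each input). Named genes are the 10 highest and 10 lowest with at least 5 regions; each list names up to 2 of its highest and lowest members.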

Additional observations from a re-analysis of the deposited data

How the results depend on the processing

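Low input depth limits single regions. For the region count, DESeq2 size factors in edgeR gave 20, DESeq2 with library totals 119 (with no adjusted p for 29214 regions), TMM 19, the replicate block 156, an adjusted p of 0.01 gave 69, and fits of the WT-called and the other regions alone gave 87 and 14. Leaving out 1 library gave 62 to 458. For the gene count these were 8, 593, 7, 874, 703, 588 and 363, with 637 for overlapped genes only and 670 to 931 without 1 library. With no filter the counts were 1354 regions and 1159 genes. The block changed no call of a named region or strongest gene; the cause of these changes was not tested.

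The mean of the 2 medians, 0.91, became 0.52 with 5 added reads, 0.41 with at least 5 reads in each input, 1.05 with summed reads, 1.83 in WT-called regions and 0.70 in the others. It was 0.87 and 0.96 in a single mouse. Introns minus the space between genes, 0.05, became -0.036 with at least 5 input reads and -0.039 in regions called in no WT library, and was 0.00 to 0.10 by mouse. Exons and UTRs minus the space between genes, -0.15, became -0.049 with at least 5 input reads, -0.43 summed and -0.067 in WT-called regions (-0.20 to -0.11 by mouse). Over 100 kb minus under 2 kb, 0.17, became 0.076 with 5 added reads, 0.021 with at least 5 input reads, 0.42 summed and 0.081 in regions called in no WT library (0.14 to 0.21 by mouse). At least 1 kb minus under 300 bp, 0.12, became 0.44 with 5 added reads, 0.90 with at least 5 input reads, -0.56 summed and -0.39 in WT-called regions (0.03 to 0.22 by mouse).

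The correlation of the mice, 0.03, became 0.093 with at least 10 reads in each ChIP, 0.34 on ChIP RPM alone and -0.40 in WT-called regions, where being called in 1 mouse selects opposite values. The gain of regions called in the other mouse, 0.11, was 0.04 and 0.07 under its alternatives. Of the list differences, those of neuronal adhesion genes (0.06 to 0.39) and keratins kept their sign under all 7 alternatives. With at least 5 input reads GABA-A receptors turned to -0.19, potassium channels to -0.11, type II cadherins to -0.0093 and olfactory receptors to -0.035; olfactory receptors were also -0.032 with 5 added reads and -0.077 in regions called in no WT library. In WT-called regions zinc-finger genes turned to 0.091, immune receptors to -0.55, glutamate receptors to -0.14 and heart and muscle genes to 0.082.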
